A study of Mus musculus with 25 samples.

Results

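The albumin gene family and the repressors of alpha-fetoprotein were followed through mouse liver development, from embryonic day 11.5 (E11.5) to adult age. The family genes are Alb, which encodes serum albumin, Afp, which encodes alpha-fetoprotein, Afm, which encodes afamin, and Gc, which encodes the vitamin D binding protein. The repressors are Zhx2, a zinc finger and homeobox protein, and Zbtb20, a BTB domain zinc finger protein. Probe sets annotated to exactly 1 of these symbols were taken, and each gene was represented by its set with the highest mean over the stages. This gave 5 of the 6 named genes, with 18 probe sets, among 18194 genes in all: 3 family genes with 8 sets (1 for Alb, 5 for Afp, 2 for Afm) and 2 repressors with 10 sets (1 for Zhx2, 9 for Zbtb20). Gc was not analysed here. The rule names the genes without use of a measured value, and only the choice among the sets of a gene used measured means.

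Serum albumin is the main protein of adult plasma, and it carries fatty acids, hormones and drugs. Alpha-fetoprotein takes a similar place in fetal plasma and is made by the yolk sac and the fetal liver. Afamin binds vitamin E and accompanies Wnt proteins in serum. The family genes lie in a cluster and share enhancers that work in hepatocytes. In the mouse, Zhx2 was found as the locus that sets how much Afp an adult liver keeps, and loss of Zbtb20 in hepatocytes leaves Afp high after birth.

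The study profiled whole livers of C57/B6 mice, described in the labels as random-bred, with no treatment or engineered allele named. There were 6 postnatal pools, taken on the day of birth (Day0), on days 3, 7, 14 and 21, and at 18 weeks (adult, titled NL and described in the labels as normal liver), and 8 fetal pools, 1 for each day from E11.5 to E18.5. Each stage was 1 pool, which held 12 livers on E11.5, 9 on the next 2 days, 6 on the 2 days after those, and 3 from E16.5 on. Technical repeats gave 2 arrays at 11 stages, and E18.5, Day7 and Day14 had 1 array each, which made 25 arrays. Total RNA was measured on Affymetrix arrays, and all values below are log2 intensities of a probe set unless an intensity is named. A pool mixes its animals, so animals were not replicated within a stage.

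The median of an array lay between 5.41 and 5.53 log2 units and the mean intensity between 140.5 and 210.4. The arrays' distributions were thus not equal. Repeats of a stage correlated at r = 0.9863 to 0.9962 across genes, each represented by the set used. The 6 measured of 7 listed hepatocyte markers had a summed intensity of 59200 to 80900 in postnatal pools and 9870 to 72100 in fetal pools. The sum was lowest from E11.5 to E14.5. The 6 measured of 7 erythroid markers summed to 679 to 10100 in postnatal pools and 7000 to 19100 in fetal pools. The 5 markers of visceral endoderm and yolk sac, the other site of Afp synthesis, stayed dim, at 180 to 249 in postnatal pools and 195 to 256 in fetal pools. The single E18.5 array had the highest muscle signal, with a summed intensity of 1130 over 5 markers against 188 to 407 at every other stage. Acta1, skeletal muscle actin, stood at 9.56 there and at 5.25 to 6.03 elsewhere. Another of the 5, Actc1, was higher at E12.5 (7.92) and E14.5 (7.70) than at E18.5 (7.16). The muscle sums of E12.5 and E14.5 were 407 and 388. In bulk RNA, a change in the share of hepatocytes and a change in RNA per hepatocyte cannot be told apart.

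Alb, Afp and Afm follow each other on mouse chromosome 5 in the RefSeq gene table of build GRCm38.p6, in that order, on the same strand and with no listed gene between them. Zhx2 lies on chromosome 15 and Zbtb20 on chromosome 16. The promoters of the 3 family genes are shown because the genes sit side by side and yet, as described below, followed 3 different courses. The windows are the 250 bases before each annotated start, from RefSeq (GRCm38.p6, plus strand), at chr5:90460620-90460869 for Alb, chr5:90490464-90490713 for Afp and chr5:90518699-90518948 for Afm. Capitals mark GTTAAT and its reverse complement, an arm of the palindromic motif read by the hepatic homeodomain activators of the albumin promoter.
Alb: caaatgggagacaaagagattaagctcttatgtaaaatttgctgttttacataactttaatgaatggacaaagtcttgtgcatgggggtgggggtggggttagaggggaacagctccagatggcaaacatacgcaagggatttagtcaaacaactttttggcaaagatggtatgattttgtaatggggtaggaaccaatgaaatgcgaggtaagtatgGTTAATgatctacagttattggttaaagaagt
Afp: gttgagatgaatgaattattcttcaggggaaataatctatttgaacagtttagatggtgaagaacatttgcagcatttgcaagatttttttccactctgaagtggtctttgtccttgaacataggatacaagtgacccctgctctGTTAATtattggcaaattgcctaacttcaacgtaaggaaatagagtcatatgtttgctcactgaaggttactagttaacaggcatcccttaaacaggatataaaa
Afm: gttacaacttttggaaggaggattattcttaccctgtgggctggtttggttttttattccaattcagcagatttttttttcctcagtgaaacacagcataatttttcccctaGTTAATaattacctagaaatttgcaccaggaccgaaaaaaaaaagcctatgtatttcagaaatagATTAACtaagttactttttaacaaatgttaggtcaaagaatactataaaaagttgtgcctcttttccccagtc
Each window held the hexamer, counted on both strands. Its first base lay at -32 from the start site in Alb, at -105 in Afp and at -138 in Afm, and the Afm window held another copy on the opposite strand at -73. The same search found it in 2112 of 32817 promoter windows of equal length (6.44%). A match of letters is a description and says nothing on binding.

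Alb was high at every stage and rose before birth. Its fetal levels, from E11.5 to E18.5, were 12.73, 12.99, 13.17, 13.25, 13.91, 13.85, 14.00 and 14.35. From Day0 to adult they were 14.04, 14.05, 14.44, 14.49, 14.09 and 14.06. The early fetal pools were the lowest, E18.5, Day7 and Day14 the highest, and the other late pools lay between them. Over the fetal course, fitted as a slope per embryonic day and given over the whole span, Alb rose by 1.59 ± 0.14 log2 units (SE, 8 pools), or 3.01-fold (limma, adjusted p = 0.00102). A gene counts as called where its change was at least 1 log2 unit and its p, adjusted over all 18194 genes by the Benjamini-Hochberg method, was under 0.05. By this rule 16.4% of all genes were called over the fetal course. Over the same course 2 of the 3 family genes (Alb and Afm) and neither repressor were called. The median change over all genes was 0.0369, and that of the 6 measured hepatocyte markers, all called higher, was 3.83.

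Alb ran at the top of the measured range for most of the series, which limits what can be said of its later course. At E11.5 its 2 arrays gave intensities of 7420 and 6240, which lay 1.12 and 1.26 log2 units under the brightest probe set of the array. From E16.5 to Day21 the distance was 0.15 or less on every array, and Alb was itself the brightest set on both arrays of E17.5, Day3 and Day21, on the Day7 and Day14 arrays and on 1 of 2 Day0 arrays. On the 2 adult arrays it was 0.41 and 0.39 below the top. The deposited table has no saturation flags, so an upper limit of the scanner or of the probes could shorten later rises. Alb was also brighter on replicate 1 than on replicate 2 at 10 of 11 stages with repeats. The 3 stages with 1 array hold only a replicate 1, and they are the 3 highest stages of Alb. Afp and Afm were also brighter on replicate 1 at most stages with repeats, while Zhx2 was dimmer there at most of them.

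Afp kept a high level through fetal life and the first week, then fell in 3 successive steps. Its fetal levels, from E11.5 to E18.5, were 12.97, 13.20, 12.90, 13.02, 13.16, 13.14, 13.31 and 13.65. From Day0 to adult they were 13.26, 13.25, 13.53, 11.96, 10.79 and 8.60. The 11 stages up to Day7 spanned less than 1 log2 unit, and only Day14, Day21 and adult lay below them. On the arrays up to Day7, Afp lay 0.62 to 1.31 log2 units under the brightest probe set. Whether an upper limit of the scanner or of the probes narrowed its differences there was not tested. The intensity was 11800 on the Day7 array, 3990 on the Day14 array, 2000 and 1560 at Day21, and 314 and 479 in adult liver. No array of a later stage overlapped one of an earlier stage in this run.

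Each of the 3 late steps of Afp was called. Steps between neighbouring stages were fitted to the 25 arrays, so their errors hold technical spread only, and E18.5, Day7 and Day14 borrow the spread of the other stages. Day14 stood 1.57 ± 0.27 log2 units under Day7 (2.96-fold, limma, adjusted p = 0.00202), a step at which 5.73% of all genes were called. Day21 stood 1.18 ± 0.24 under Day14 (2.26-fold, adjusted p = 0.00446), where 3.56% of genes were called. Adult liver stood 2.19 ± 0.19 under Day21 (4.55-fold, adjusted p = 2.4e-06), where 1.81% of genes were called. The middle step fell just short of 1 log2 unit at equal housekeeping levels (-0.97), with the mean of all Afp sets (-0.94) and without replicate 2 of Day21 (-1.0). Blood cell markers also fell in this window: 3 of 6 erythroid and 5 of 6 granulocyte markers were called lower at Day14 than at Day7, to summed intensities of 679 and 1450 at Day14, against 3220 and 14800 at Day7, and their part in the Afp steps was not tested.

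Over the whole span from birth, adult liver held 4.66 ± 0.19 log2 units less Afp than Day0 liver, or 25.2-fold less (limma, adjusted p = 5e-11). In this comparison 10.9% of all genes were called, and the call fell to 3 of the 5 genes: Afp, lower in the adult, and Afm and Zbtb20, higher. Erythroid markers (6 of 6, median -2.28) and granulocyte markers (6 of 6, median -4.89) were called lower in the adult as well, while none of 6 hepatocyte markers was called (median 0.08), and their part in these differences was not tested. Between Day0 and E18.5 no gene of the family and no repressor was called by the set used, beside 5.88% of all genes. Of 9 Zbtb20 sets 2 were called there, 1437598_at at 1.35 ± 0.24 (limma, adjusted p = 0.00101) and 1443471_at at 1.11 ± 0.13 (adjusted p = 4.59e-05), beside 4.79% of all sets.

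Afm started low, rose before birth and rose again in the first week. Its fetal levels, from E11.5 to E18.5, were 7.48, 7.41, 7.78, 7.72, 9.10, 9.59, 9.88 and 10.65. From Day0 to adult they were 9.87, 11.31, 12.42, 11.98, 11.50 and 11.22. The first 4 pools were alike, the level stepped up at E15.5 and again after birth, and Day7 was the highest. Over the fetal course Afm rose by 3.44 ± 0.38 log2 units, or 10.9-fold (limma, adjusted p = 0.0013). E15.5 stood 1.38 ± 0.20 above E14.5 (limma, adjusted p = 0.000378), with 9.20 and 9.00 on the 2 arrays of E15.5 and 7.74 and 7.70 on those of E14.5. At that step 2.45% of all genes were called. The summed intensity of the hepatocyte markers stepped at the same place, to 34000 at E15.5 against 11000 at E14.5, and that of the granulocyte markers to 8960 against 1950.

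After birth, Afm rose at both steps of the first week. Day3 stood 1.44 ± 0.20 above Day0 (limma, adjusted p = 0.000195), with 11.61 and 11.02 at Day3 and 10.08 and 9.67 at Day0, so the arrays did not overlap. Day7 stood 1.11 ± 0.25 above Day3 (adjusted p = 0.00448), a step at which 5 of 6 erythroid markers were called lower (median -1.87), to a summed intensity of 3220 at Day7, against 10100 at Day3. The part of erythroid RNA in it was not tested. The shares of all genes called at these steps were 2.91% and 6.16%. The second step was under 1 log2 unit after quantile normalization (0.78), at equal housekeeping levels (0.96) and without replicate 2 of Day3 (0.82). Afm in adult liver was 1.34 ± 0.20 above Day0 (2.54-fold, limma, adjusted p = 9.81e-05). The later steps of Afm were not called: Day14 minus Day7 was -0.45 ± 0.29, Day21 minus Day14 was -0.48 ± 0.25 and adult minus Day21 was -0.28 ± 0.20.

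**Figure D1:**
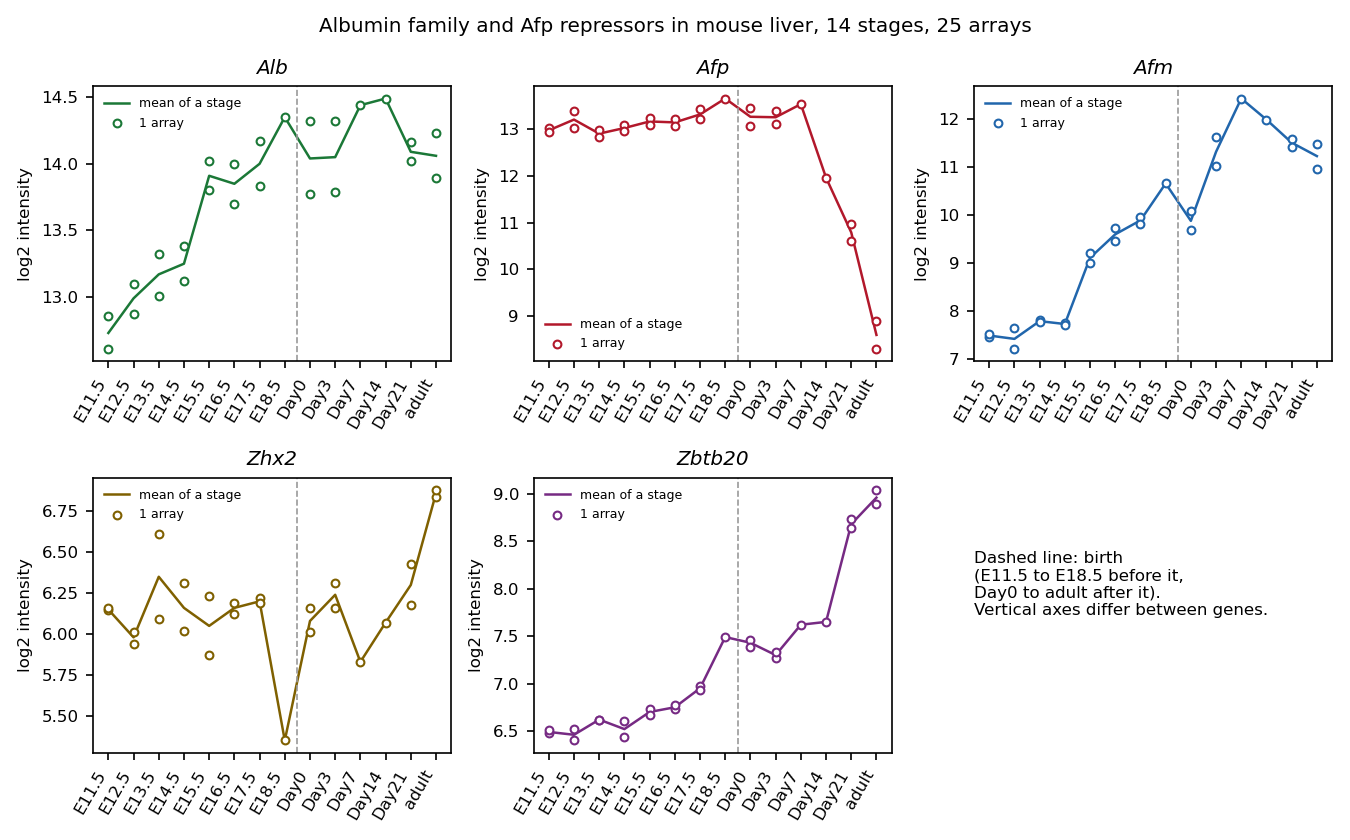
Log2 intensity (vertical axes, which differ between genes) of the 5 measured genes at the 14 stages in order of age. Each circle is 1 array, the line joins stage means and the dashed line marks birth. Every Afp array lies at 12.82 or above up to Day7, and its adult mean is 8.60, Zbtb20 climbs to 8.96, and Zhx2 stays between 5.35 and 6.86.

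Postnatal pools were set against fetal pools next, with stages standing as the replicates of a class. In this comparison 9.51% of all genes were called, with a median change of 0.0148. Afm was higher after birth by 2.68 ± 0.56 log2 units (SE, 6 postnatal and 8 fetal pools), or 6.42-fold (limma, adjusted p = 0.00551). It averaged 11.38 ± 0.87 in postnatal pools and 8.70 ± 1.26 in fetal pools (SD). Alb, at 14.20 ± 0.21 in postnatal pools and 13.53 ± 0.57 in fetal pools, differed by 0.66 ± 0.23 and was not called (adjusted p = 0.0595). Afp, at 11.90 ± 1.92 in postnatal pools and 13.17 ± 0.24 in fetal pools, differed by -1.27 ± 0.64 and was not called either (adjusted p = 0.177). Its postnatal class ran from 8.60 in the adult pool to 13.53 at Day7. The classes overlapped for each of the 5 genes.

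A smooth course over all 14 pools, a natural spline in stage order, was called for 29.8% of genes and for 4 of the 5 members. The fitted range was 4.68 log2 units for Afp (limma, adjusted p = 7.42e-06), 4.37 for Afm (1.2e-05), 2.44 for Zbtb20 (1.2e-05) and 1.58 for Alb (2.77e-05). Zhx2, with a fitted range of 0.86, was not called (adjusted p = 0.0796).

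Zbtb20 rose over the series and reached its highest levels at Day21 and in adult liver. Its fetal levels, from E11.5 to E18.5, were 6.49, 6.46, 6.62, 6.52, 6.70, 6.75, 6.95 and 7.49. From Day0 to adult they were 7.43, 7.30, 7.62, 7.65, 8.68 and 8.96. The last 2 pools stood apart above all earlier stages. The intensity was 398 and 425 at Day21 against 200 on the Day14 array, and 525 and 473 in adult liver. Day21 was 1.04 ± 0.10 log2 units above Day14 (2.05-fold, limma, adjusted p = 1.03e-05). This step was 0.77 after quantile normalization and 0.99 without replicate 2 of Day21, both under 1 log2 unit.

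Adult liver held 1.53 ± 0.08 log2 units more Zbtb20 than Day0 liver (2.90-fold, limma, adjusted p = 8.82e-10). Between postnatal and fetal pools the difference was 1.19 ± 0.27, or 2.28-fold (limma, adjusted p = 0.00742), with 7.94 ± 0.70 in postnatal pools and 6.75 ± 0.34 in fetal pools. Without the adult pool it was 0.99 and no longer called. Over the fetal course Zbtb20 changed by 0.83 ± 0.19, with an adjusted p of 0.0142 in limma but under 1 log2 unit. It passed that limit under other scalings, at 1.01 after quantile normalization and 1.17 at equal housekeeping levels. The median of all genes was 0.03 and 0.37 under these scalings, which left 0.98 and 0.80 above the median. At E18.5 minus E17.5 the change was 0.54 ± 0.10 (adjusted p = 0.00156), also under the limit.

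Zhx2 was dim and nearly level until adult age. Its fetal levels, from E11.5 to E18.5, were 6.15, 5.98, 6.35, 6.16, 6.05, 6.16, 6.20 and 5.35. From Day0 to adult they were 6.08, 6.24, 5.83, 6.07, 6.30 and 6.86. The adult pool was the highest and the E18.5 pool the lowest, and each stood apart from its neighbour in the order of levels by more than the technical SD of 0.17. These were 2 of the 13 gaps in that order, and the other gaps did not exceed it. Intensities ran from 40.8 at E18.5 to 115 and 118 in adult liver, and the table gives no detection call for so dim a set.

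Adult liver held 0.78 ± 0.15 log2 units more Zhx2 than Day0 liver, or 1.72-fold (limma, adjusted p = 0.00106), which is under the limit of 1 log2 unit. With the arrays set to equal housekeeping levels the difference was 1.30 and called, while the median of all genes moved to 0.56 under that scaling, which left 0.74 above the median. The 14 housekeeping genes were not level themselves: in adult minus Day0, B2m (1.06) was called higher and Tfrc (-3.28), Hprt (-1.36) and Rplp0 (-1.22) lower, genes named after their values were seen. Adult minus Day21 was 0.56 ± 0.15 (adjusted p = 0.0419). The low E18.5 value gave -0.85 ± 0.19 against E17.5 (adjusted p = 0.00531) and 0.73 ± 0.19 for Day0 over E18.5 (adjusted p = 0.0107). It rests on the 1 array of E18.5, which had the highest sum of muscle markers. The part of muscle RNA in this low value was not tested. Between postnatal and fetal pools Zhx2 differed by 0.18 ± 0.17 (adjusted p = 0.474), with 6.23 ± 0.35 in postnatal pools and 6.05 ± 0.30 in fetal pools.

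**Figure D2:**
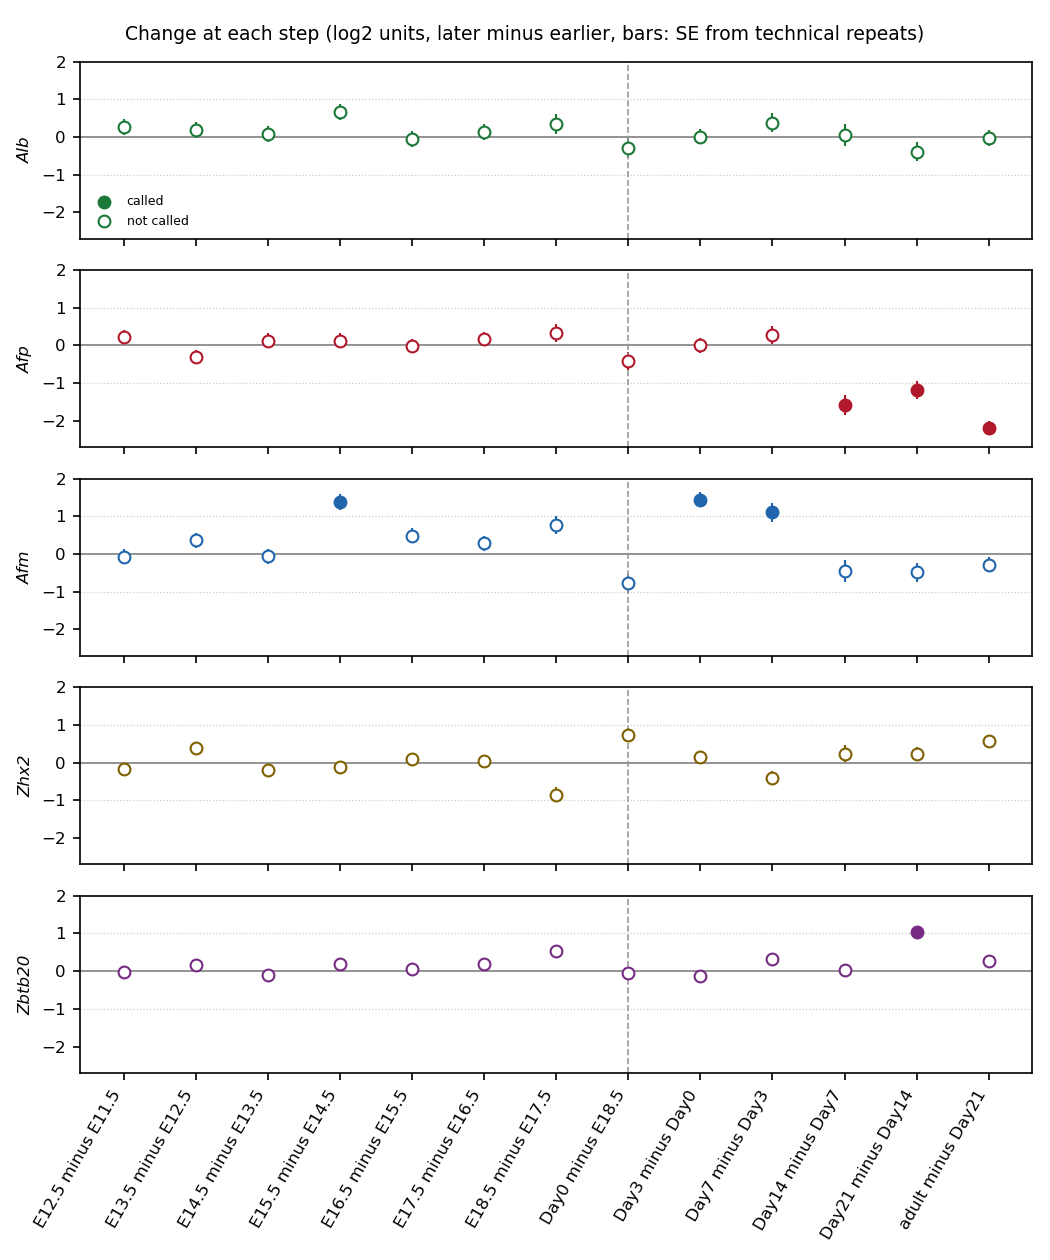
Change of each gene at each of the 13 steps, later minus earlier stage, in log2 units, with SE bars from technical repeats. Filled circles are called and open ones not, and the dashed line marks birth. The 7 filled steps are 3 of Afp, all below 0, 3 of Afm and 1 of Zbtb20, all above 0, and none lies at birth.

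In all, 7 of 65 gene steps were called. Over all genes 6814 gene steps were called, with 0.044% to 6.16% of genes called at a step. Of the 65, 14 had an adjusted p under 0.05, and the share of all genes under that limit alone was not counted. None of the 5 genes was called at E12.5 minus E11.5, E13.5 minus E12.5, E14.5 minus E13.5, E16.5 minus E15.5, E17.5 minus E16.5 and E18.5 minus E17.5. The shares of all genes called at these steps were 2.76%, 1.04%, 0.044%, 0.236%, 0.747% and 4.12% in the same order. A slope over the 6 postnatal pools called 0% of genes, with 2540 of 18194 genes at an unadjusted p under 0.05, so that test could single out no member. By this slope, given over the whole span, Afp changed by -5.04 ± 1.09 (limma, adjusted p = 0.178) and Zbtb20 by 1.77 ± 0.46 (adjusted p = 0.194). Zhx2 changed by 0.73 ± 0.33, Afm by 1.16 ± 0.96 and Alb by 0.04 ± 0.28.

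The order of stages differed from gene to gene. Measured against its own technical SD, 9 of 13 gaps between neighbouring levels of Zbtb20 exceeded the SD of 0.06, and 8 of 13 did for Afm (SD 0.23). For Afp it was 4 of 13 (SD 0.21), of which the 3 lowest set off adult, Day21 and Day14. For Alb it was 3 of 13 (SD 0.24), and the levels of Day0, Day3, Day21 and adult liver lay within 0.05 of each other. The whole range was 5.05 log2 units for Afp, 5.01 for Afm, 2.50 for Zbtb20, 1.76 for Alb and 1.51 for Zhx2.

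Other probe sets were compared with those used, each tested among all 45101 sets, of which 8.02% were called in adult minus Day0. For Afp, 3 of 5 sets were called, all lower in the adult: the set used, 1416646_at at -6.22 (74.4-fold) and 1436879_x_at at -3.76 (13.6-fold). Set 1436881_x_at changed by -0.87 and 1436880_at by 0.39, neither called, and 1436880_at was flat near its mean of 6.81 at every stage. The size of the Afp fall therefore depended on the set. Set 1436881_x_at fell by less than 1 log2 unit (limma, adjusted p = 0.00137), and 1436880_at did not fall. For Zbtb20, 8 of 9 sets were called, all higher in the adult, by 1.10 to 2.20 log2 units, while 1443471_at changed by -0.36. Both Afm sets were called, at 1.34 and 1.38.

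At the single late steps the sets of Zbtb20 differed more. For Day21 minus Day14, 7 of 9 sets were called, all higher at Day21, beside 2.9% of all sets. For adult minus Day21, 1451577_at was lower by 1.17 log2 units in the adult and called, with levels of 7.61 in adult liver and 8.79 at Day21, while the set used changed by 0.28. At that step 1.5% of all sets were called. Between postnatal and fetal pools, where 6.21% of all sets were called, 6 of 9 Zbtb20 sets (1.11 to 2.09), both Afm sets (2.68 and 2.82) and no Afp set were called. Alb and Zhx2 had 1 set each and allow no such check.

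**Figure D3:**
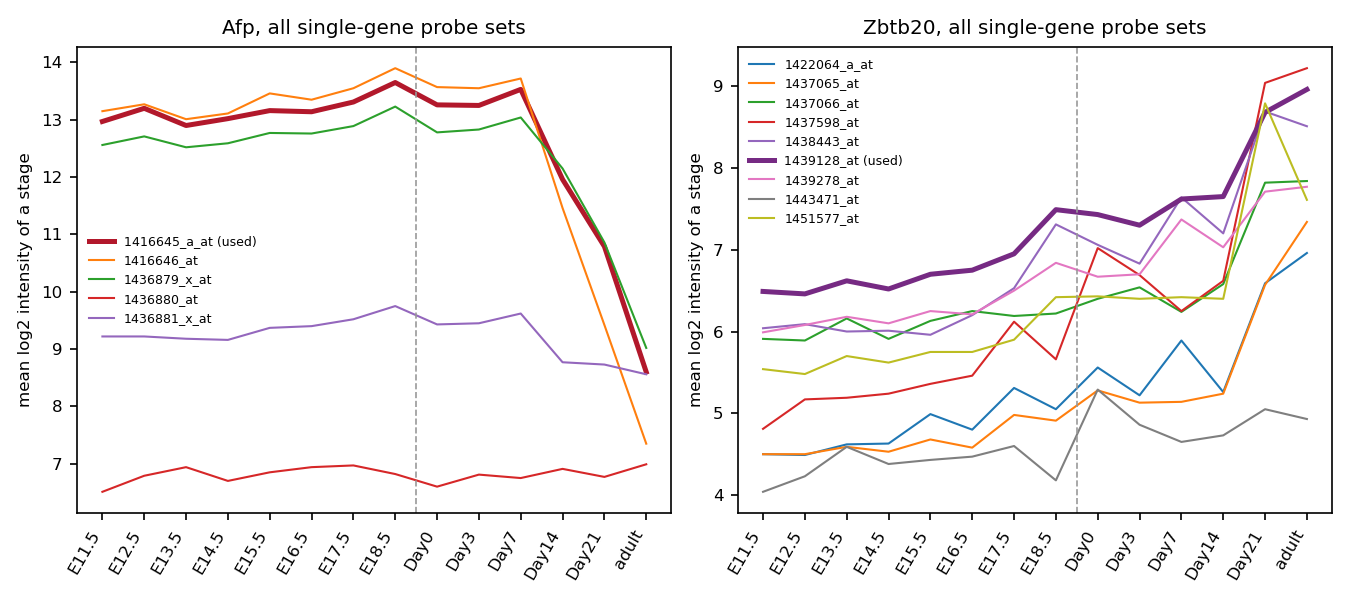
Mean log2 intensity by stage of the 5 Afp sets (left) and the 9 Zbtb20 sets (right), with the set used drawn thick and birth dashed. Of the Afp sets 3 fall steeply after Day7, and 1 stays near 6.81 throughout. Of the Zbtb20 sets 8 end higher in the adult than at Day0, and 1443471_at does not.

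The family genes changed unequally. Differences between members within a pool are not moved by a shift of a whole array, and only their change between classes is read, since levels of different probe sets are not comparable. The log2 ratio of Alb over Afp was 1.94 higher in postnatal pools, at 2.30 ± 1.87 in postnatal pools and 0.36 ± 0.42 in fetal pools (SD, n = 6 and 8). An exact permutation test over the pools, two-sided, gave p = 0.000333, the smallest that 3003 splits allow, and 0.000999 adjusted over 3 pairs. The ratio was 5.46 in adult liver and 0.79 at Day0. Alb and Afp stood at 14.35 and 13.65 at E18.5 and at 14.44 and 13.53 at Day7, so the ratio moved little across birth. At Day14 they stood at 14.49 and 11.96, and the ratio rose most after Day7. The pools are ordered in age and not independent draws, so the test does not place this change, or those below, at birth.

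Afm gained on both of its neighbours. The ratio of Alb over Afm changed by -2.02 (exact permutation test, adjusted p = 0.00167), with 2.81 ± 0.73 in postnatal pools and 4.83 ± 0.72 in fetal pools. The ratio of Afp over Afm changed by -3.95 (exact permutation test, adjusted p = 0.000999), with 0.51 ± 2.11 in postnatal pools and 4.47 ± 1.08 in fetal pools. It was -2.62 in adult liver and 3.38 at Day0. The ratio of Alb over Afm was 2.84 in adult liver and 4.17 at Day0. From E16.5 to Day21 Alb lay 0.15 log2 units or less under the brightest set of each array. The part of an upper limit for Alb in its ratios with Afm and Afp was not tested.

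**Figure D4:**
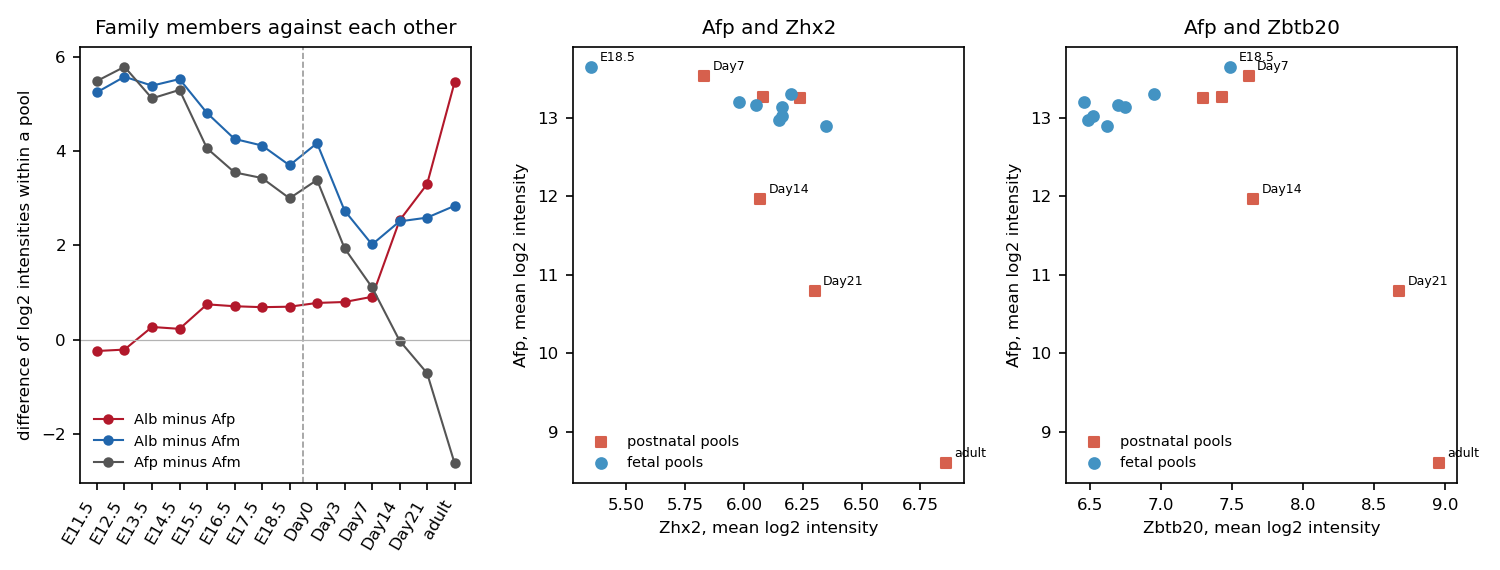
Left, differences of log2 intensities between family members in each pool, by stage, with birth dashed. Centre and right, mean log2 intensity of Afp (vertical) against Zhx2 and Zbtb20 (horizontal), 1 point a pool, postnatal pools as squares and fetal pools as circles. Among postnatal pools the adult pool, with Afp at 8.60, lies at the lower right in both, and among fetal pools E18.5 stands apart.

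Each family gene was set against each repressor within the postnatal pools and within the fetal pools, 12 relations in all. Of these, 6 had an adjusted p under 0.05 by exact permutation of pairings (two-sided, Benjamini-Hochberg over the 12). Without E18.5 this count was 1, and without Day0, Day21 or adult it was 4 each. With 6 pools the smallest p the test allows is 0.00278. Pools of neighbouring ages are not independent draws, and every relation here runs along the same time axis. E18.5 and Day7, which have a replicate 1 only, held the highest levels of Afp and the lowest of Zhx2. The part of the offset between replicates in these relations was not tested.

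After birth, Afp was lowest in the adult pool, where both repressors were highest. Its correlation with Zbtb20 over the 6 postnatal pools was r = -0.94 (exact permutation p = 0.0139, adjusted p = 0.0333), with rho = -0.77 (adjusted exact p = 0.308). Without Day21 and adult, the pools farthest from the median of Zbtb20, r was -0.46, so the relation rests on them. With Zhx2 it was r = -0.90 (exact permutation p = 0.0208, adjusted p = 0.0417), with rho = -0.83 (adjusted exact p = 0.233), and r was -0.47 without Day7 and adult. Leaving out the adult pool alone gave -0.62 for Zhx2 (adjusted exact p = 0.362) and -0.88 for Zbtb20 (adjusted exact p = 0.2). At Day14, where Afp had already fallen to 11.96, Zbtb20 (7.65 at Day14 and 7.62 at Day7) and Zhx2 (6.07 at Day14 and 5.83 at Day7) had changed by 0.03 ± 0.12 and 0.24 ± 0.22, neither of them called.

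Before birth the signs were mixed. Zbtb20 ran along with Afm at r = 0.90 (exact permutation, adjusted p = 0.000298) and rho = 1.0 (adjusted exact p = 0.000595), and with Alb at r = 0.85 (exact permutation, adjusted p = 0.00372) and rho = 0.93 (adjusted exact p = 0.0134). Without E17.5 and E18.5 these were 0.94 and 0.90. Without E18.5 alone the relation with Alb had an adjusted exact p of 0.0536 (r = 0.88), and after quantile normalization r was 0.64 (adjusted exact p = 0.264). The correlation of Afp with Zbtb20 was also above 0 in fetal pools, at r = 0.88 (exact permutation, adjusted p = 0.0333), against -0.94 in postnatal pools, and the difference between the classes was not tested. It fell to 0.16 without E17.5 and E18.5, and rho was 0.55 (adjusted exact p = 0.342).

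The fetal relation of Afp with Zhx2, r = -0.88 (exact permutation, adjusted p = 0.0333), rested on the E18.5 array. Without E18.5 alone r was -0.54 (adjusted exact p = 0.417). Without E13.5 and E18.5 it was -0.13, after quantile normalization -0.18 and at equal housekeeping levels -0.19, and rho was -0.57 (adjusted exact p = 0.342). The other relations had adjusted exact p values of 0.175 to 0.893. Among them were Alb with Zhx2 (r = -0.54 in fetal pools and -0.59 in postnatal pools) and Afm with Zbtb20 after birth (r = 0.07).

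The genes whose levels followed each member most closely over the 14 stage means were listed among 8455 genes with a range of at least 1 log2 unit, as a description. For Alb they were Aadac, an arylacetamide deacetylase (r = 0.981), Cfi, complement factor I (0.978), and Pzp, a plasma protease inhibitor (0.974). For Afp they were Tceal9 (0.983), D17H6S56E-5 (0.965) and Grb10, an imprinted adaptor of growth factor receptors (0.963). Grb10 stood at 11.93 at E11.5, 11.17 at Day7 and 6.01 in adult liver. For Afm they were C1s1, a complement protease (0.992), Hagh, a glyoxalase (0.989), and Itih1, an inter-alpha-trypsin inhibitor chain (0.988).

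Zbtb20 was followed most closely by Fmo5, a flavin monooxygenase (r = 0.994), Xdh, xanthine dehydrogenase (0.984), and Pex11a, a peroxisomal membrane protein (0.982). Fmo5 stood at 5.56 at E11.5, 8.78 at Day7 and 11.46 in adult liver. The closest genes to Zhx2 were less close, with Fam71e1 at r = 0.912, Lrrc28 at 0.905 and Eif4e3, a cap-binding protein, at 0.89. These points share their libraries and the course of development.

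Activators and other regulators of the family, a list of 21 factors of which 18 were measured, rose after birth more often than they fell. In postnatal minus fetal pools 7 of the 18 were called, all higher, beside 9.51% of all genes called. The list median was 0.76 beside 0.0148 for all genes. The largest changes were those of Dbp (1.69 ± 0.55), which binds a D site of the albumin promoter, Cebpb (1.41 ± 0.37), Hnf4a (1.26 ± 0.21), a nuclear receptor of hepatocyte identity, and Nr5a2 (1.22 ± 0.18), which binds the Afp promoter. Nfia (1.11 ± 0.16) and Tef (1.09 ± 0.23), a relative of Dbp, were called as well. The postnatal and fetal pools of Nfia and Nr5a2 did not overlap. The share of all genes without overlap was not counted, here or for Zhx3 and Fcgrt below. Onecut1 (0.47 ± 0.29), Foxa1 (0.14 ± 0.26) and Nr2f2 (0.00 ± 0.24) were among the 11 not called.

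The called factors did not share one course. Nr5a2 was at 6.37 to 6.98 before birth, 7.59 at Day0, 7.74 at Day14, 8.57 at Day21 and 8.55 in adult liver. Hnf4a was already at 10.85 at E18.5, with 10.89 at Day0 and 11.27 in adult liver, and Foxa3 was at 8.18 at Day3, 7.82 at Day21 and 8.20 in adult liver. Dbp, which cycles with the hour of day, read 9.34 at Day21, 6.22 in adult liver and at most 6.54 elsewhere. The hour of collection is not stated in the labels. In adult minus Day0, Cebpa (1.78 ± 0.19), Dbp (1.54 ± 0.13), Foxa1 (1.33 ± 0.17), Foxa2 (1.27 ± 0.17) and Foxa3 (1.10 ± 0.18) were called higher and Cebpd (-1.75 ± 0.21) lower. In that comparison 10.9% of all genes were called, and the list median was 0.76 beside 0.0365 for all genes. For Cebpa and Cebpd the Day0 pool stood apart from its neighbours. Cebpa was at 10.23 at E18.5, 8.04 at Day0, 9.90 at Day3 and 9.82 in adult liver. Cebpd was at 7.06 at E18.5, 8.93 at Day0, 6.40 at Day3 and 7.18 in adult liver.

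Over the fetal course none of the 18 factors was called higher and 3 were called lower, a share near the 16.4% of all genes called there. These were Nr2f1, a COUP-family nuclear receptor (-2.47 ± 0.58), Nfib (-1.29 ± 0.36) and Foxa1 (-1.06 ± 0.22). Nr2f1 was at 7.27 at E11.5 and between 4.37 and 5.29 from E13.5 on. The list median was 0.21 beside 0.0369 for all genes.

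The closest relatives of Zhx2 did not share one course. Zhx3 was higher in postnatal pools by 1.40 ± 0.22 log2 units (2.64-fold, limma, adjusted p = 0.00109), at 6.97 ± 0.62 in postnatal pools and 5.57 ± 0.20 in fetal pools, with no overlap. It was highest at Day21, at 7.88, and stood at 7.33 in adult liver. Zhx1 differed by 0.11 ± 0.13 (adjusted p = 0.57), at 6.87 ± 0.21 in postnatal pools and 6.76 ± 0.27 in fetal pools.

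Of 5 genes listed as responding to Zhx2 in the mouse 3 were measured, and each was called in adult minus Day0, beside 10.9% of all genes. Gpc3, a cell surface proteoglycan that like Afp is shut off after birth, was lower in the adult by 3.09 ± 0.14 log2 units (8.52-fold, limma, adjusted p = 9.47e-11). It stood at 9.12 at Day0, 9.61 at Day3, 8.15 at Day7, 7.01 at Day14, 6.81 at Day21 and 6.03 in adult liver. Its level at Day7 was thus already under that of Day3, whereas Afp was still at 13.53. Lpl, lipoprotein lipase, was lower by 3.53 ± 0.20 (11.6-fold, adjusted p = 1.34e-09), at 11.67 at Day0, 11.91 at Day21 and 8.14 in adult liver. Elovl3, a fatty acid elongase, was higher by 6.02 ± 0.14 (adjusted p = 1.06e-13), at 10.89 in adult liver and between 4.66 and 5.17 at every other stage. Between postnatal and fetal pools the 3 differed by -0.80 ± 0.48, 0.85 ± 0.69 and 0.92 ± 0.81 in the same order (limma, adjusted p = 0.261, 0.411 and 0.452), none of them called.

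**Figure D5:**
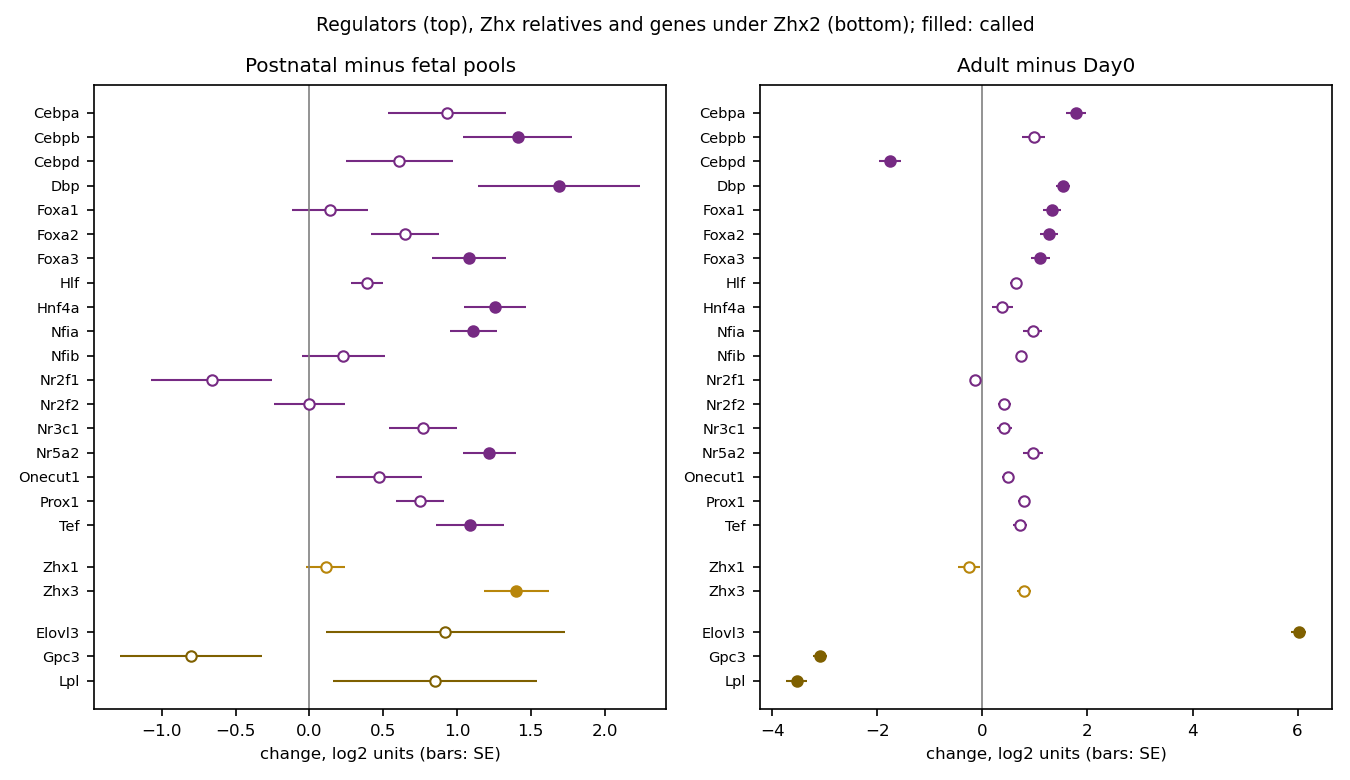
Change in log2 units with SE bars of the 18 regulators (top), the 2 Zhx relatives (middle) and the 3 genes listed under Zhx2 (bottom), for postnatal minus fetal pools (left) and adult minus Day0 (right). Filled circles are called. On the left 7 regulators and Zhx3 are filled, all above 0. On the right Gpc3 (-3.09) and Lpl (-3.53) lie far below 0 and Elovl3 (6.02) far above.

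Receptors that bind albumin or its relatives were a list of 7, all measured. Fcgrt and B2m, the chains of the neonatal Fc receptor that recycles albumin, were called higher in postnatal pools. They differed by 1.84 ± 0.27 and 1.85 ± 0.36 (limma, adjusted p = 0.000734 and 0.00359), and no receptor was called lower. Fcgrt stood at 9.29 ± 0.42 in postnatal pools and 7.44 ± 0.58 in fetal pools, with no overlap. Over the fetal course both rose, by 1.36 ± 0.34 and 2.25 ± 0.32, as did Cd36, a fatty acid translocase (3.59 ± 0.41). Lrp2 and Cubn, which take up albumin and its relatives in the kidney, read 5.19 to 5.71 and 4.96 to 5.73. The list medians were 0.36 in the class comparison and 0.19 over the fetal course. Over all genes 9.51% were called in the class comparison and 16.4% over the fetal course.

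Other carriers of the plasma, a list of 12 with 11 measured, ran with Alb and Afm in the fetal course. There 9 were called higher and none lower, beside 16.4% of all genes called. The list median was 4.53 beside 0.0369 for all genes. The largest changes were those of Ahsg, fetuin-A (7.50 ± 0.81), Hp, haptoglobin (7.16 ± 1.19), and Apoh (6.36 ± 0.61). The smallest of the 9 changes was that of Ttr, transthyretin, at 1.95. In postnatal minus fetal pools 8 were called higher and none lower, beside 9.51% of all genes called. Among the 8 were Fetub (5.28 ± 0.84) and Hp (4.83 ± 1.08), and the list median was 2.56. Serpina6, not called there, read 9.88 to 12.40 in fetal pools and 6.06 to 12.11 in postnatal pools. In that comparison Ttr differed by 0.96 ± 0.31 (adjusted p = 0.0405), just under 1 log2 unit. Some of these genes are also hepatocyte markers.

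From Day0 to adult age the carriers were mostly level, with a median of -0.04. Serpina6, the carrier of corticosteroids, was higher in adult liver by 4.44 ± 0.17 (21.8-fold, limma, adjusted p = 1.81e-11), and Serpina7, the carrier of thyroxine, was lower by 1.45 ± 0.25 (adjusted p = 0.000292). Serpina6 was at 9.88 at E18.5, 6.50 at Day0, 6.06 at Day3 and 10.94 in adult liver. It was thus lowest around birth. Hepatocyte markers as a list had a median change of 0.08 in adult minus Day0, with intensities summing to 59200 in adult liver and 60800 at Day0.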

How the data were processed

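Total RNA of pooled livers was hybridised to Affymetrix mouse arrays, and the deposited table holds linear intensities of 45101 probe sets on 25 arrays. RMA made these intensities per the submitters' processing notes, with no version or scaling stated. No flag in that table marks saturation or detection, so bright and dim sets are limited at both ends. Tests planned on a log2 scale were run on log2 of the intensities.

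Symbols came from the platform annotation: 34958 sets carried 1 symbol, 932 several and 9211 none. A gene took its set with the highest mean over the 14 stages. Repeat arrays were averaged before the comparisons between pools. Class differences, slopes (per embryonic day over 8 fetal pools, per log2(day + 1) over 6 postnatal pools, with 18 weeks taken at 7 days each) and a spline (natural, 3 degrees of freedom) used these means. Neighbouring stages and adult minus Day0 were estimated from the 25 single arrays, stage as a factor. The fits used limma 3.58.1 (lmFit and eBayes) in R 4.3.3 (data.table, version 1.17.8) and were tested on simulated data. Calls needed a Benjamini-Hochberg adjusted p under 0.05 over 18194 genes and 1 log2 unit. P-values between pools measure the spread among pools of different ages, and those between stages measure technical spread.

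Correlations and within-pool differences used exact permutation (Python 3.11.15, numpy 2.4.6, scipy 1.17.1, pandas 2.3.3), and figures matplotlib 3.10.9. Named genes were the members, the 3 genes most like each over the stages, and listed regulators, receptors, carriers and Zhx genes, up to 6 called per comparison and up to 3 not called. Members and lists were chosen with earlier results of these data known. The alternatives tried were other scalings and probe set choices, a filter on dim genes, a variance trend, replicate 1 only, a replicate block, another time axis and leaving out pools or arrays. A check of single probe sets and the omission of E18.5, Day7 and Day14 were added after seeing the data. Genes without a singly annotated probe set were not used here.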

Additional observations from a re-analysis of the deposited data

Results flagged for a closer look

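Each gene was screened for a pool far from the rest of its class, over 10 groups (5 genes in the postnatal pools and in the fetal pools), and 1 was marked. Zhx2 in fetal pools was lowest at E18.5, at 5.35, with the nearest fetal pool at 5.98. The gap was 0.62 of the range of the 8 fetal pools, above the critical value of 0.526. Chance marks about 1 in 20 groups. E18.5 is a single array, and the same array held Acta1 at 9.56, so the value has no repeat. The part of muscle RNA in it was not tested.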

How the results depend on the processing

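Counts over all genes kept within 1.5 times of the main count under most alternatives. For "postnatal course", 0 genes were called, 3 after quantile normalization and 36 with stage order as the time axis, and for "course over all stages" 9923 were called at equal housekeeping levels, against 5414. For "steps between neighbouring stages", 4198 calls were made with the mean of all sets of a gene, against 6814. Leaving out 1 pool or array gave 1415 to 2039 calls for "postnatal minus fetal", 2521 to 3058 for "fetal course", 4488 to 5559 for "course over all stages", 6612 to 7254 for "steps between neighbouring stages" and 1799 to 2331 for "adult minus Day0". Equal housekeeping levels moved the median of all genes to 0.24 in "postnatal minus fetal", 0.37 in "fetal course" and 0.56 in "adult minus Day0". The higher and lower calls then split as 1249 and 589 (main 912 and 819), 1558 and 1284 (main 800 and 2179), and 1546 and 614 (main 695 and 1296). Quantile normalization split "fetal course" as 951 and 1340.

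With the replicate block, "steps between neighbouring stages" gave 7121 calls and "adult minus Day0" gave 1991, and no call of a member changed. Deviations of same-numbered arrays correlated over 0.1 in 38 of 55 pairs of stages (median 0.398, range -0.573 to 0.73). Not every pair did, so the numbers were not used as a pairing. Whether they mark a shared batch is not stated in the labels and was not tested.

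Of the 12 relations of family genes with Zhx2 and Zbtb20 ("members against Zhx2 and Zbtb20"), 6 were under 0.05, 3 with the mean of all sets, 2 with the second brightest set, 2 after quantile normalization, and 1 to 6 with 1 pool left out. The cause was not tested. All 3 ratios between family genes held in every alternative run. Over single relations, 199 repeats kept the call and 29 lost it. Over single members and the ratios between family genes, 2532 kept it, 9 lost it, 5 gained it and none reversed. Among those not given above, the Zhx2 spline was called at equal housekeeping levels (1.44, beside a median of 1.04) and Afm passed at E18.5 minus E17.5 with its other set (1.06). The upper end of the scale limits Alb and may limit Afp up to Day7, and dimness limits Zhx2.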
